A study of Mus musculus with 4 samples.

Results

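The genes described here were those of the Wnt pathway at the cell surface and its direct readouts. They were picked by gene family from their symbols, with earlier results of these data already known. They comprised the 19 Wnt ligands, 4 R-spondins (*Rspo1* to *Rspo4*), 10 Frizzled receptors (*Fzd1* to *Fzd10*), the co-receptors *Lrp5* and *Lrp6*, the secreted antagonists (4 *Sfrp* genes, 4 *Dkk* genes and *Wif1*) and 4 commonly used target genes (*Axin2*, *Lef1*, *Tcf7* and *Notum*), which made 48 of the 46983 genes listed. Their RNA was measured by RNA-seq in larynx tissue from mouse embryos at E10.5 (32 to 35 somites), as 2 pools from Shh-/- embryos (pools 1 and 2) and 2 pools from WT embryos (pools 4 and 6), each of 3 larynxes. The WT embryos were Swiss Webster, and the *Shh* null allele (Shhtm1amc) was kept on the same background. The sample labels write the mutant pools as Shh+/-, which the paper on these data uses as a name for the allele. The paper and the design text of the series both call the mutant embryos Shh-/-, the name used below. All values are TPM (a gene's share of the library's transcripts after scaling for length), given in the order of pools 1, 2, 4 and 6, and nothing in the sources says whether mutant and WT embryos were littermates.

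Wnt ligands are lipid-modified secreted proteins that bind Frizzled receptors together with LRP5 or LRP6, which stabilizes β-catenin and turns on target genes through TCF/LEF factors, while some ligands act through ROR receptors and planar polarity proteins instead. R-spondins amplify the signal by keeping Frizzleds on the membrane, and SFRP, WIF1 and DKK proteins block it by binding the ligands or the co-receptors. In the anterior foregut, Wnt ligands of the ventral mesenchyme, *Wnt2* and *Wnt2b* among them, are known for their part in specifying the respiratory epithelium, and Hedgehog signaling from the epithelium patterns that mesenchyme.

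The aligned bases, taken from the ratio of coverage to FPKM in each table, came to 1372 Mb in Shh-/- pool 1 and to between 2845 and 3128 Mb in the other 3 pools. *Ptch1*, the Hedgehog receptor and a direct target of the pathway, measured 12.9 and 13.8 TPM in Shh-/- and 57.8 and 55.1 TPM in WT (log2 fold change −2.00, SE 0.12, limma adjusted p = 0.0319). *Gli1*, a Hedgehog effector and target, measured 3.20 and 8.45 TPM against 41.7 and 32.9 TPM (−2.59, adjusted p = 0.0715), so the first Shh-/- pool was the lower of the pair. *Shh* itself was listed at 10.4 and 10.8 TPM against 23.7 and 42.1 TPM. Marker genes of other cell types differed between the genotypes too. Of all 16972 tested genes, 9895 were higher in Shh-/-, and 0.725% passed the test (limma adjusted p under 0.05). Neuron markers were higher in the Shh-/- pools for 9 of 10 genes, 5 of them past the test, and summed to 689 and 741 TPM against 281 and 269 TPM. Muscle markers summed to 221 and 339 TPM against 123 and 124 TPM, with all 9 tested genes higher, 2 past the test, and *Myl2* at 0 in 3 pools. Endothelial markers summed to 287 and 328 TPM against 191 and 183 TPM, with 6 of 6 genes higher and 1 past the test. Markers of splanchnic mesenchyme summed to 43.9 and 76.5 TPM against 201 and 163 TPM, with 6 of 8 genes lower and 1 past the test. Foregut epithelial markers as a list summed to 698 and 608 TPM against 643 and 651 TPM, with 6 of 10 genes higher. None of the 10 passed the test, although *Foxa2* was at 5.34 and 9.12 TPM against 29.2 and 39.8 TPM. *Nkx2-1* was at 6.16 and 3.61 TPM against 15.9 and 17.9 TPM. Neural crest markers summed to 183 and 155 TPM against 155 and 130 TPM, with 6 of 7 tested genes higher. Macrophage markers summed to 18.6 and 14.6 TPM against 12.3 and 16.0 TPM, with 5 of 6 higher. Erythroid markers summed to 11681 and 17793 TPM against 15802 and 18212 TPM, with all 7 lower. None of these 3 lists had a gene past the test. The part of these shifts in the Wnt results below was not tested, and in whole tissue fewer cells of a type and less RNA per cell cannot be told apart.

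Ligands and their amplifiers lay in both directions between the genotypes, and the receptors, antagonists and target genes were mostly higher in Shh-/-. *Wnt6* rose 6.07-fold in the Shh-/- larynx and *Rspo2* was 2.91-fold higher in WT, so that it fell in Shh-/-, and these were the only members past the threshold. Of the 48 members, 33 had a mean of at least 1 TPM over the 4 pools and were tested with limma on log2(TPM + 1). In Shh-/- 23 of them were higher and 10 lower, where 9895 of all 16972 tested genes were higher and 7077 lower. The counts of directions by family below stand beside this uneven split of all genes. At an adjusted p under 0.05, 1 member rose and 1 fell, against 0.725% of all 16972 genes called (0.560% higher and 0.165% lower). At an adjusted p under 0.10 there were 7 members, of which *Wnt6*, *Dkk1*, *Notum*, *Fzd2* and *Fzd7* were higher and *Rspo2* and *Wnt4* lower, against 5.06% of all genes (3.95% higher and 1.11% lower). An unadjusted p under 0.05 was reached by 16 members, against 24.8% of all genes. Both Shh-/- pools lay above both WT pools for 17 members and below them for 9, where 38.0% and 22.7% of all tested genes did so. With a log2 fold change of at least 0.5 in size as well, the counts were 10 and 8, against 14.6% and 6.22% of all genes. The median log2 fold change was 0.28 over the tested members and 0.08 over all tested genes. The plots of TPM by pool and of the change of each gene show these values.

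**Figure D1:**
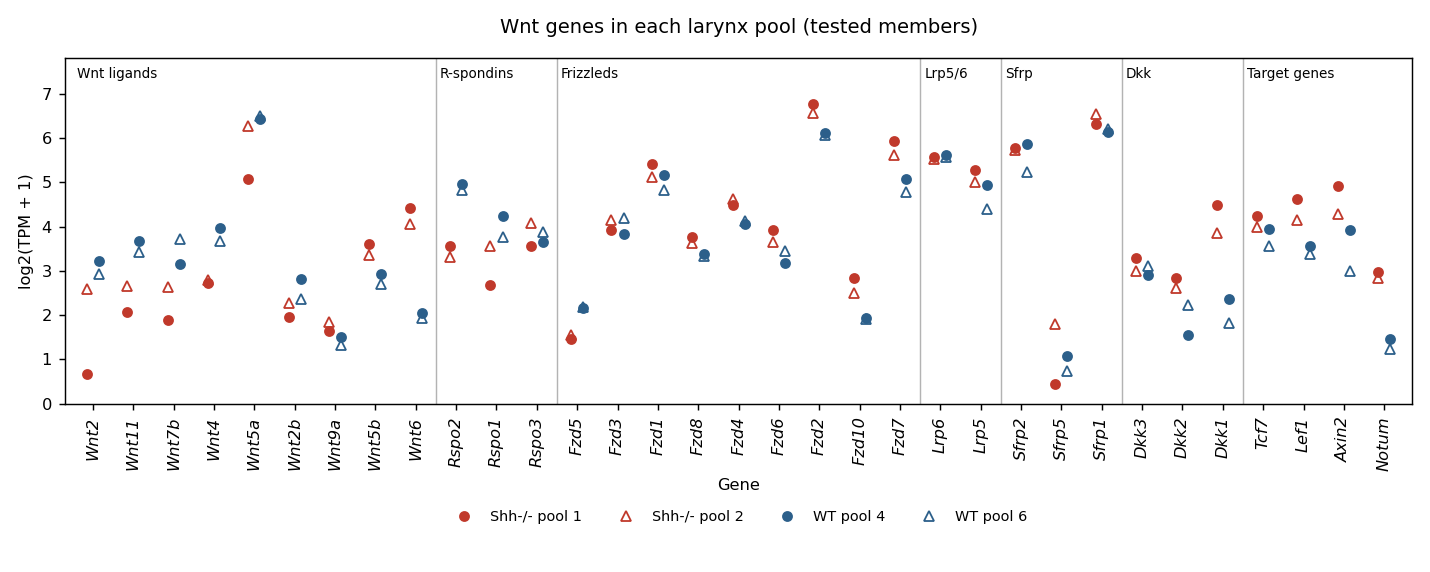
Level of the 33 tested Wnt genes in each pool, as log2(TPM + 1) on the vertical axis, by family; each point is 1 pool of 3 larynxes, red for Shh-/- and blue for WT. For *Wnt6*, *Dkk1* and *Notum* both Shh-/- pools sit well above WT, for *Rspo2* and *Wnt4* both sit below, and *Wnt2* and *Wnt5a* show 1 Shh-/- pool far below the other.

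**Figure D2:**
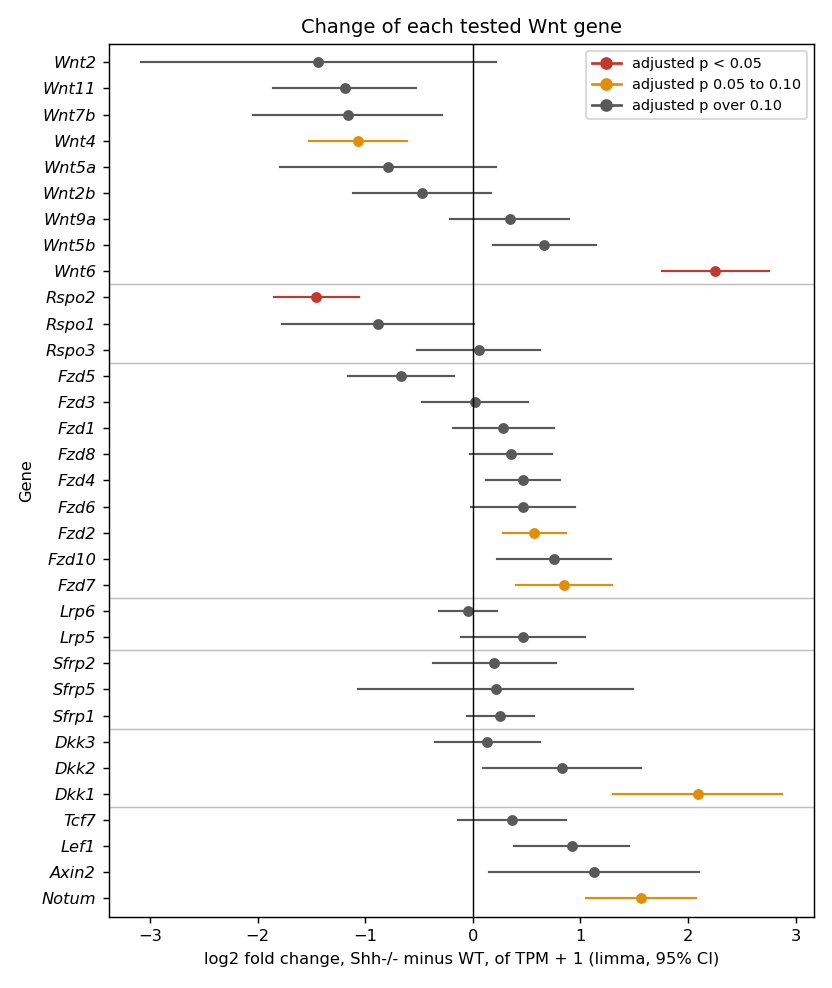
Log2 fold change (Shh-/- minus WT, on log2(TPM + 1)) of each tested Wnt gene with its 95% confidence interval from limma, 2 pools per genotype, by family and colored by adjusted p. *Wnt6* (2.25) and *Rspo2* (−1.45) are the genes past an adjusted p of 0.05; the target genes, *Dkk1* and *Dkk2* lie to the right of 0, and most Wnt ligands to the left.

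Among the ligands, *Wnt6* (ENSMUSG00000033227.7, mm10 chromosome 1, 74771892 to 74785322, plus strand) showed the largest difference of those tested on the log2(TPM + 1) scale. *Wnt6*, which encodes a ligand known from embryonic epithelia, measured 20.5 and 15.7 TPM in Shh-/- and 3.13 and 2.84 TPM in WT. The groups were far apart, and each pair of pools was close, within 1.31-fold in Shh-/- and 1.10-fold in WT. The mean was 6.07-fold higher in Shh-/-, and the log2 fold change was 2.25 (SE 0.19, 95% CI 1.75 to 2.75, limma adjusted p = 0.0383). The difference stayed between 2.07 and 2.43 with any 1 pool left out, but the adjusted p then rose to between 0.0824 and 0.147, and without a filter on TPM it was 0.146. The RefSeq promoter of *Wnt6* is printed here because this was the one Wnt ligand past the threshold, together with that of *Dkk1*, the tested antagonist furthest from WT on the log2(TPM + 1) scale. Each sequence runs 5′ to 3′ on the strand of the gene, from 250 bases before its start to 50 bases after it, on GRCm38.p6. The *Wnt6* promoter (chr1:74771642-74771941, plus strand) is 76.7% G and C, with 31 CG dinucleotides. That of *Dkk1* (chr19:30549447-30549746, minus strand) is 60.7% G and C with 9 CG dinucleotides. The median over the 32851 promoters of the table was 52.7% G and C with 7 CG dinucleotides, and over the 38 promoters of the 31 members found in it 67.3% and 25.5. Neither promoter held either of the motifs searched below, so no letters are in capitals.
Wnt6: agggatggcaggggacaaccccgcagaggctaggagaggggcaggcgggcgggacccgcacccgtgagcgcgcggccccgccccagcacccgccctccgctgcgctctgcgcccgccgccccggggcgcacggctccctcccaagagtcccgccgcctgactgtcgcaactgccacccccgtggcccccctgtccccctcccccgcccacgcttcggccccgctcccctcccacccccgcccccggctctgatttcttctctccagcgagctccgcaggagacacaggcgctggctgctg
Dkk1: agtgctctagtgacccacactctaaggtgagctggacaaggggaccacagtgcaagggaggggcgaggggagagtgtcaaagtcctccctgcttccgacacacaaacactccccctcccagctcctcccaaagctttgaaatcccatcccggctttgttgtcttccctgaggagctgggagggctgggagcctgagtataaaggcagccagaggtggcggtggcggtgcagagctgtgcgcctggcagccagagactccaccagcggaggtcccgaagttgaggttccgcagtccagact

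Of the other tested ligands, 6 had lower values in both Shh-/- pools than in either WT pool, as did 22.7% of all tested genes, and none of them passed the test. *Wnt4*, a ligand of both canonical and non-canonical signaling (chromosome 4, 137277489 to 137299726, plus strand), had 5.59 and 5.89 TPM in Shh-/- against 14.7 and 11.7 TPM in WT. The Shh-/- pools of *Wnt4* were nearly equal, and both were well below WT (log2 fold change −1.07, SE 0.18, limma adjusted p = 0.0766). *Wnt11*, a ligand best known from convergent extension movements (chromosome 7, 98835112 to 98855195, plus strand), had 3.19 and 5.33 TPM against 11.9 and 9.73 TPM (−1.19, SE 0.26, adjusted p = 0.104). *Wnt7b*, an epithelial ligand of the developing lung (chromosome 15, 85535439 to 85581821, minus strand), had 2.71 and 5.27 TPM against 7.87 and 12.2 TPM (−1.17, SE 0.34, adjusted p = 0.145). In both genes, Shh-/- pool 1 was the lower of the pair, and the highest Shh-/- value stayed under the lowest WT value. *Wnt2b*, which acts with *Wnt2* in respiratory specification, differed least of the 6, with 2.88 and 3.84 TPM against 6.05 and 4.13 TPM (−0.47, adjusted p = 0.296).

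For *Wnt2* and *Wnt5a*, the difference lay mostly in Shh-/- pool 1. *Wnt2*, a canonical ligand of foregut mesenchyme (chromosome 6, 17988940 to 18030585, minus strand), measured 0.604 TPM in that pool and 5.04 TPM in pool 2, against 8.37 and 6.58 TPM in WT. The Shh-/- pools of *Wnt2* thus stood 8.34-fold apart, and the log2 fold change of −1.44 (SE 0.64, limma adjusted p = 0.241) was −0.48 without pool 1 and −2.39 without pool 2. *Wnt5a*, the main non-canonical ligand of mesenchyme and the most abundant Wnt here (chromosome 14, 28504750 to 28527447, plus strand), measured 33.0 and 76.1 TPM against 85.8 and 89.3 TPM. Pool 2 came near the WT pools and pool 1 did not, so that the log2 fold change of −0.79 (SE 0.39, adjusted p = 0.274) became −0.20 without pool 1 and −1.38 without pool 2. *Gm2670*, which overlaps *Wnt5a* on the opposite strand, measured 1.81 and 3.71 TPM against 4.13 and 3.80 TPM, and without known strand use their reads cannot be separated. Shh-/- pool 1 had the fewest aligned bases, the lowest *Gli1* and the lowest splanchnic mesenchyme sum (43.9 TPM), and the part of these in the low *Wnt2* and *Wnt5a* values was not tested.

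Alongside *Wnt6*, 2 tested ligands lay on the higher side. *Wnt5b*, a relative of *Wnt5a* (chromosome 6, 119432531 to 119544347, minus strand), had 11.3 and 9.22 TPM in Shh-/- against 6.64 and 5.56 TPM in WT (0.66 on the log2 scale, SE 0.19, limma adjusted p = 0.138). After correction for GC content and transcript length the change of *Wnt5b* was 0.36. *Fbxl14*, which overlaps *Wnt5b* on the opposite strand, measured 41.8 and 34.8 TPM against 29.1 and 27.3 TPM, and whether the counting used strand is not given in the sources used here, so the value of *Wnt5b* is uncertain. *Wnt9a* had 2.14 and 2.60 TPM against 1.83 and 1.49 TPM (0.34, adjusted p = 0.367), and its change was 0.06 after the same correction. Of the 9 tested ligands 3 were thus higher and 6 lower, with a median change of −0.79 on the log2 scale. The split was the same after quantile normalization, median centring or correction for GC content and length. With FPKM 2 were higher and 6 lower of 8 tested. Without a filter on TPM, which lets in ligands of very low level, 9 were higher and 8 lower of 17. The 9 ligands above the filter all had groups that did not overlap, against 60.7% of all tested genes.

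The other 10 ligands averaged under 1 TPM and were not tested. *Wnt3* was listed at 1.07 and 0.846 TPM in Shh-/- and at 0.307 and 0.0490 TPM in WT. *Wnt9b* was listed at 1.23 and 1.29 TPM against 0.348 and 0 TPM. *Wnt7a* was listed at 0.822 and 0.566 TPM against 0.0996 and 0.111 TPM. All 3 were thus low, with the Shh-/- pools above the WT pools. *Wnt10a*, the neighbor of *Wnt6* on the same strand with 6193 bases between them, was listed at 0.139 and 0.292 TPM in Shh-/- and at 0 in both WT pools, far below *Wnt6* itself. *Wnt3* and *Wnt9b* are neighbors as well, with 24328 bases between them on opposite strands. *Wnt1* and *Wnt8b* were listed at 0 in all 4 pools, and *Wnt3a*, *Wnt8a*, *Wnt10b* and *Wnt16* reached at most 0.175 TPM in any pool.

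The ligand total differed in its makeup as well as its size. Summed over the 19 genes, Wnt ligands came to 85.3 and 132 TPM in Shh-/- and 147 and 144 TPM in WT, a ratio of 0.747 that was 0.586 without Shh-/- pool 2 and 0.909 without pool 1. Without *Wnt5a* the sums were 52.3 and 56.1 TPM against 61.4 and 54.5 TPM, so the groups overlapped. *Wnt6* made up 24.1 and 11.9% of Wnt TPM in Shh-/- against 2.13 and 1.98% in WT, and *Wnt5a* made up 38.7 and 57.5% against 58.3 and 62.1%. These shares are parts of one sum, so a higher share of one ligand lowers the others.

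**Figure D3:**
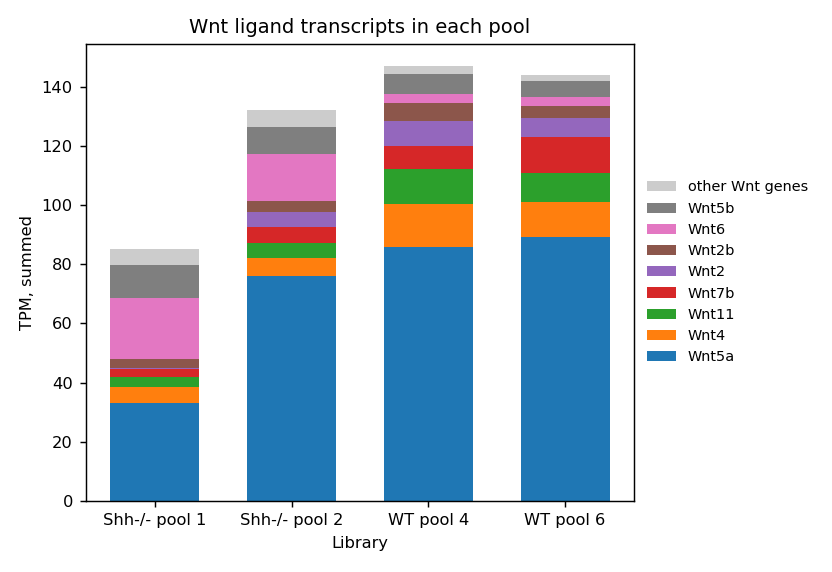
Stacked TPM of the Wnt ligands in each pool (bars start at 0, 1 bar per pool, 1 color per gene, with the ligands not named in the key summed in light gray). *Wnt6* takes 24.1 and 11.9% of the ligand total in the Shh-/- pools against 2.13 and 1.98% in WT, and *Wnt5a* is lowest in Shh-/- pool 1.

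The R-spondins were represented by 3 genes above the filter, and they differed among themselves. *Rspo2* (ENSMUSG00000051920.6, chromosome 15, 43020811 to 43170818, minus strand), a mesenchymal R-spondin needed for larynx, lung and limb development, measured 10.8 and 8.91 TPM in Shh-/- and 30.0 and 27.2 TPM in WT. The groups were well separated and each pair of pools close, and the mean was 2.91-fold higher in WT (log2 fold change −1.45, SE 0.15, 95% CI −1.85 to −1.06, limma adjusted p = 0.0463). With 1 pool left out the difference stayed between −1.58 and −1.33 and the adjusted p lay between 0.110 and 0.174. It was 0.0513 with a pseudocount of 0.1, 0.0535 without the variance trend and 0.146 without a filter on TPM, so the call of *Rspo2* depended on these settings. *Rspo1* had 5.47 and 10.9 TPM against 17.96 and 12.7 TPM (−0.88, SE 0.35, adjusted p = 0.206). Its groups did not overlap, and Shh-/- pool 1 was again the lower (1.99-fold apart). *Rspo3* had 10.8 and 15.8 TPM against 11.6 and 13.7 TPM, with overlapping groups and a log2 fold change of 0.05 that was −0.08 after median centring. *Rspo4* was listed at 1.97 and 0.609 TPM against 0.133 and 0.0852 TPM and was not tested. *Rspo2* accordingly made up 37.1 and 24.6% of R-spondin TPM in Shh-/- and 50.2 and 50.7% in WT, and the R-spondin sum was 29.0 and 36.2 TPM against 59.6 and 53.7 TPM. The splanchnic mesenchyme marker sum, which holds the Hedgehog targets *Foxf1* and *Foxf2*, was lower in the same pools, while *Barx1* and *Wt1* of that list were higher. The part of these markers in the *Rspo2* and *Rspo1* values was not tested.

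Frizzled receptors were mostly higher in the Shh-/- pools, by small amounts. Of the 9 tested, 8 had a higher mean in Shh-/- and only *Fzd5* a lower one, and with FPKM, quantile normalization or median centring *Fzd3* joined *Fzd5* on the lower side. The groups did not overlap for 6 of the 8 and for *Fzd5*, and 38.0% of all tested genes lay apart on the higher and 22.7% on the lower side. *Fzd2*, the most abundant Frizzled (chromosome 11, 102604396 to 102608058, plus strand), measured 108 and 94.0 TPM against 68.9 and 66.1 TPM (log2 fold change 0.57, SE 0.11, limma adjusted p = 0.0957). *Fzd7* (chromosome 1, 59482424 to 59486955, plus strand), of the same subfamily, measured 59.8 and 48.4 TPM against 32.9 and 26.4 TPM (0.84, SE 0.17, adjusted p = 0.0975). Both receptors were thus clear of WT in each pool without passing the test, and after correction for GC content and transcript length their log2 fold changes were 0.27 and 0.62. *Fzd10* had 6.199 and 4.70 TPM against 2.83 and 2.77 TPM (0.75, SE 0.20, adjusted p = 0.134), and its change was 0.47 after the same correction. *Fzd5*, a receptor of endodermal epithelium, had 1.75 and 1.93 TPM against 3.47 and 3.56 TPM (−0.67, SE 0.19, adjusted p = 0.141). Each pair of *Fzd5* pools differed by no more than 1.10-fold, and the WT mean was 1.91-fold the Shh-/- mean.

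The remaining tested Frizzleds had log2 fold changes from 0.02 for *Fzd3* to 0.47 for *Fzd6* and *Fzd4*, with 0.28 for *Fzd1* and 0.35 for *Fzd8* between them. After correction for GC content and transcript length *Fzd1* was at 0.008 and *Fzd8* at 0.20. *Fzd3* was then at 0.32, *Fzd6* at 0.43 and *Fzd4* at 0.45. *Fzd4*, which also serves as the receptor of Norrin, measured 21.3 and 23.8 TPM in Shh-/- and 15.7 and 16.4 TPM in WT (adjusted p = 0.141 by limma). *Fzd9* was under the filter, at 0.895 and 1.17 TPM against 0.847 and 0.286 TPM. Summed over the 10 genes, Frizzled TPM was 1.43-fold higher in Shh-/-, at 281 and 248 TPM against 190.05 and 179 TPM, and *Fzd2* held a share of 36.2 to 38.4% of it in every pool. The co-receptors differed less than the Frizzleds. *Lrp6* measured 46.9 and 45.4 TPM in Shh-/- and 48.4 and 46.7 TPM in WT (log2 fold change −0.04, SE 0.10, 95% CI −0.31 to 0.23, adjusted p = 0.822), and its sign turned after correction for GC content and length (0.01). *Lrp5* measured 37.7 and 31.4 TPM against 30.0 and 20.2 TPM (0.47, SE 0.22, adjusted p = 0.264), and its groups were separated by less than the gap within either pair of pools.

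None of the secreted antagonists passed the test, and the 6 that were tested all had higher means in Shh-/-. *Dkk1*, which blocks LRP5 and LRP6 and is itself a Wnt target (chromosome 19, 30545863 to 30549665, minus strand), stood out among them. It measured 21.6 and 13.5 TPM in Shh-/- and 4.14 and 2.53 TPM in WT. The lowest Shh-/- pool was more than 3 times the highest WT pool, and the pools of each genotype differed 1.60-fold and 1.63-fold (log2 fold change 2.09, SE 0.31, limma adjusted p = 0.0679). *Dkk2* had 6.17 and 5.10 TPM against 1.95 and 3.70 TPM (0.83, SE 0.28, adjusted p = 0.172), and *Dkk3*, which differs from the others in not binding LRP6, overlapped between the groups (0.14, and −0.02 without Shh-/- pool 1). *Dkk1* made up 58.6 and 52.8% of *Dkk* TPM in Shh-/- and 32.7 and 18.3% in WT. *Dkk4* was listed at 0.249 TPM in Shh-/- pool 1 and at 0 in the rest.

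The *Sfrp* genes were the most abundant antagonists and differed little. *Sfrp1* measured 78.5 and 91.9 TPM in Shh-/- and 69.0 and 73.1 TPM in WT (log2 fold change 0.25, SE 0.12, 95% CI −0.06 to 0.57, limma adjusted p = 0.263). *Sfrp2* measured 54.1 and 51.8 TPM against 57.1 and 36.9 TPM, so its WT pools lay on either side of the Shh-/- pools (0.20, adjusted p = 0.589). *Sfrp5*, an antagonist of foregut endoderm, measured 0.359 and 2.49 TPM against 1.11 and 0.679 TPM, and the Shh-/- pools lay 6.94-fold apart on either side of WT. *Sfrp4* stayed under 0.454 TPM in every pool. *Wif1*, which binds Wnt ligands directly, was under the filter, at 2.03 and 0.793 TPM in Shh-/- and 0.206 and 0 TPM in WT. The antagonists together came to 172 and 173 TPM in Shh-/- and 141 and 125 TPM in WT, a ratio of 1.301. Under quantile normalization *Dkk3*, and after correction for GC content and length *Sfrp5*, lay on the lower side.

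The 4 target genes all had higher values in both Shh-/- pools than in either WT pool, as did 38.0% of all tested genes, and none passed the test. *Notum*, a secreted enzyme that removes the lipid from Wnt ligands (chromosome 11, 120653788 to 120661175, minus strand), measured 6.88 and 6.15 TPM in Shh-/- and 1.74 and 1.35 TPM in WT. Its pools agreed within 1.12-fold in Shh-/- and 1.29-fold in WT, and the mean was 4.21-fold higher in Shh-/- (log2 fold change 1.56, SE 0.20, limma adjusted p = 0.0595). *Notumos*, on the opposite strand, was lower in level but also higher in Shh-/-, at 1.55 and 1.08 TPM against 0.218 and 0.311 TPM, and without known strand use the genes cannot be separated. *Axin2*, a negative feedback component of the β-catenin destruction complex (chromosome 11, 108920349 to 108950783, plus strand), measured 29.1 and 18.5 TPM against 14.3 and 7.04 TPM (1.13, SE 0.38, adjusted p = 0.168). The *Axin2* pools of one genotype differed 1.57-fold in Shh-/- and 2.03-fold in WT, and the lower Shh-/- pool exceeded the higher WT pool by less than either gap. *Lef1*, a transcription factor of the pathway (chromosome 3, 131110471 to 131224356, plus strand), measured 23.7 and 16.8 TPM against 10.8 and 9.43 TPM (0.92, SE 0.21, adjusted p = 0.108). *Tcf7*, the T-cell factor TCF1, measured 17.9 and 15.0 TPM against 14.4 and 10.9 TPM (0.36, SE 0.19, adjusted p = 0.304). The median log2 fold change of the 4 was 1.02, and 0.89 after median centring. Neuron, muscle and endothelial markers were higher in the same pools, and their part in these values was not tested.

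Beyond these families, 59 other genes of the pathway were examined, of which 55 were tested. In Shh-/- 38 were higher and 17 lower, where 9895 of all 16972 tested genes were higher. The median change was 0.29 on the log2 scale, or 0.10 after correction for GC content and transcript length, against 0.08 in both cases over all tested genes. At the threshold 1 of the 55 was called, against 0.725% of all tested genes. That gene was *Draxin*, a secreted protein of axon guidance that binds LRP6 and restrains Wnt signaling. It rose from 4.92 and 3.70 TPM in WT to 22.0 and 17.3 TPM in Shh-/- (log2 fold change 1.96, SE 0.21, limma adjusted p = 0.0462), and no gene of the list passed with any 1 pool left out, with a pseudocount of 0.1, without a filter on TPM or without the variance trend. Among the other secreted antagonists, *Frzb* had 25.0 and 23.1 TPM against 15.9 and 13.4 TPM (0.68, adjusted p = 0.104). Among co-receptors, *Gpc4*, a glypican, had 39.8 and 26.9 TPM against 12.5 and 11.7 TPM (1.37, adjusted p = 0.0715). *Ror2*, a receptor of WNT5A, had 30.9 and 24.7 TPM against 16.8 and 10.1 TPM (1.03, adjusted p = 0.127). Both were clear of WT in each pool, in the opposite direction to *Wnt5a*. In the planar polarity list *Daam2*, a formin, had 28.2 and 20.7 TPM against 7.15 and 5.22 TPM (1.82, adjusted p = 0.0592) and *Celsr3* had 2.04 and 4.75 TPM against 1.04 and 0.871 TPM (1.10, adjusted p = 0.161).

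Of the 10 further feedback and target genes, 5 were higher and 5 lower. *Tnfrsf19*, a receptor of the TNF family, had 16.9 and 17.8 TPM in Shh-/- against 36.0 and 41.2 TPM in WT (−1.11 on the log2 scale, SE 0.13, limma adjusted p = 0.0540), the reverse of the 4 target genes above. *Nkd2*, an inhibitor of Dishevelled, had 8.96 and 5.90 TPM against 3.48 and 2.97 TPM (0.97, adjusted p = 0.122). Among 16 intracellular transducers 13 were higher, and the 2 furthest apart were *Bcl9l*, a β-catenin cofactor (0.72, adjusted p = 0.129), and *Tcf7l1*, a repressor of the TCF family (0.71, adjusted p = 0.118). After correction for GC content and length the values were 0.34 and 0.38. Of the 3 genes for ligand secretion, *Porcn*, which attaches the lipid to Wnt ligands, was higher (10.8 and 7.86 TPM against 6.17 and 5.45 TPM, 0.59, adjusted p = 0.178) and *Tmed2*, a cargo receptor, lower (152 and 149 TPM against 165 and 163 TPM, −0.12, adjusted p = 0.415).

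The Shh-/- pools were not equally far from WT. Against the WT mean on the log2(TPM + 1) scale, *Wnt2* was −2.39 in pool 1 and −0.48 in pool 2, *Wnt5a* −1.38 and −0.20, *Wnt7b* −1.54 and −0.79, *Wnt11* −1.49 and −0.89, and *Rspo1* −1.32 and −0.44. *Rspo2* differed in the other order (−1.33 and −1.58), and *Wnt4* was nearly equal in both (−1.10 and −1.03). Among the genes on the higher side, *Dkk1* was 2.41 in pool 1 and 1.77 in pool 2, *Axin2* 1.44 and 0.82, *Wnt6* 2.43 and 2.07 and *Notum* 1.63 and 1.49. The Shh-/- pools differed more than 1.5-fold in 8 of the 33 tested members, against 16.8% of all tested genes, and the WT pools in 6, against 14.2%. Over the 33 tested members, pool 1 was further from the WT mean for 25 and pool 2 for 8 (*Wnt9a*, *Rspo2*, *Rspo3*, *Fzd3*, *Fzd4*, *Lrp6*, *Sfrp1* and *Sfrp5*), and pool 1 was further for 59.4% of all tested genes.

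**Figure D4:**
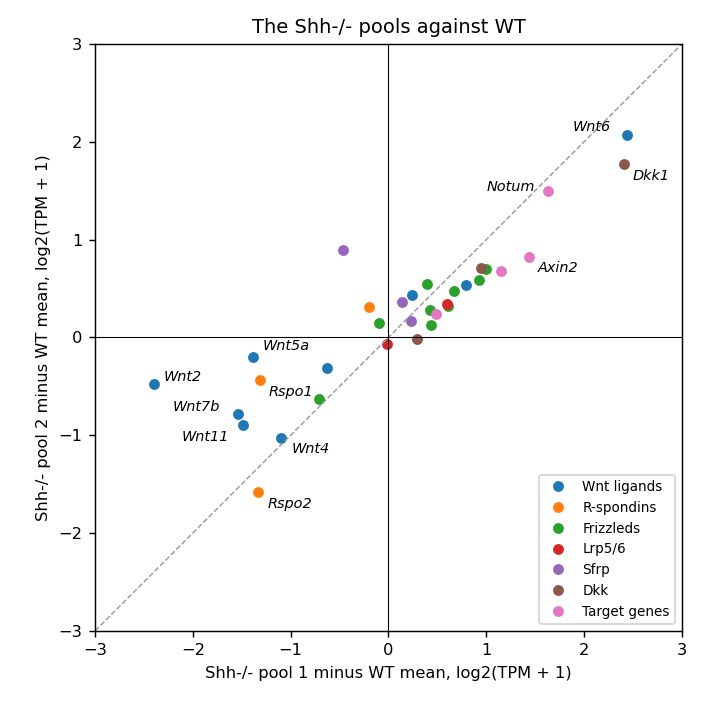
Difference of each Shh-/- pool from the WT mean on the log2(TPM + 1) scale for the 33 tested Wnt genes, pool 1 on the horizontal and pool 2 on the vertical axis, colored by family; the dashed line marks equal differences. *Wnt2* (−2.39 and −0.48) and *Wnt5a* (−1.38 and −0.20) lie far from the line, while *Wnt4* (−1.10 and −1.03) and *Notum* (1.63 and 1.49) lie close to it.

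The promoters of the members were searched on both strands for the TCF/LEF motif CTTTGAT and for the GLI motif TGGGTGGTC, which do not overlap each other. The TCF/LEF letters occurred in 3.73% of all 32851 promoters and in 2 of the 38 member promoters, 1 of *Wnt11* and 1 of *Wnt5b*, and the GLI letters in 0.253% of all promoters and in none of the members'. Those with a match are printed because they belong to ligands that lay on opposite sides of WT, *Wnt11* lower and *Wnt5b* higher in Shh-/-, and capitals mark the match. In *Wnt11* (chr7:98834862-98835161, plus strand) it begins 51 bases before 1 of the 2 start sites listed, and in *Wnt5b* (chr6:119449337-119449636, minus strand) 71 bases before 1 of the 3 start sites listed. A match describes these letters only, and is neither a bound site nor a cause of the values above.
Wnt11: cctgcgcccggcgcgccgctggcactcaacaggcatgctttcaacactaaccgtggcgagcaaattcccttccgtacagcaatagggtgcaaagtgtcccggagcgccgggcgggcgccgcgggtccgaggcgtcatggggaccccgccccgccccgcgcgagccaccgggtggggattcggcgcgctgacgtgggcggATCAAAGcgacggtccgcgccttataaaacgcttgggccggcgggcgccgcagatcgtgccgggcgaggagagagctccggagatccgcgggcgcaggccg
Wnt5b: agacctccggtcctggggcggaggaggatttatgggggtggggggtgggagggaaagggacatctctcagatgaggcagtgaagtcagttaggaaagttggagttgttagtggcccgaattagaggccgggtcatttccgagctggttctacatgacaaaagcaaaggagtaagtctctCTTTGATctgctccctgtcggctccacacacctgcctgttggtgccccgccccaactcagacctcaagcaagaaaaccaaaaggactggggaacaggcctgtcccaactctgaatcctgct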

How the data were processed

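The authors made stranded, poly(A)-selected libraries, aligned the reads to mm10 with HISAT2 (version 2.1.0 in the submitters' processing notes) and estimated gene levels with StringTie (1.3.6). The deposited tables hold mean coverage per gene, FPKM as the authors scaled it to library size, and TPM as the authors scaled it within each library; no read counts were used, and the annotation release and strand setting are not given in the sources used here. Rows of 1 gene ID were summed. Genes with a mean of at least 1 TPM were compared (Shh-/- minus WT, no covariates) in R 4.3.3 by limma 3.58.1 (eBayes with trend, after lmFit) on log2(TPM + 1), with Benjamini-Hochberg adjustment over all 16972 genes and a threshold of 0.05. Fold changes on this scale understate those of low genes. An exact permutation test of 2 pools against 2 cannot give a two-sided p below 0.333 and was not used. Depth was read from coverage over FPKM in genes with 1 transcript. Without counts, no counting error could be given. The script was tested on simulated data.

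Alternatives were a pseudocount of 0.1, no filter or a mean of at least 5 TPM, quantile normalization, median centring, TPM without globin and mitochondrial genes, FPKM, eBayes without trend or robust, correction for GC content and transcript length (splines of 5 degrees of freedom, 16887 genes), an adjusted p of 0.10 and each pool left out. All 37 mitochondrial genes are listed at 0, so a 0 can be a failed estimate. Members and gene lists were chosen with earlier results of these data known. Named genes were the members past the threshold, those with groups apart and a log2 fold change of at least 0.5, the most abundant of each family, the target genes and co-receptors and, per other list, the 2 largest changes with groups apart; members named beyond these were chosen after their values were seen. Replicates are separately labelled pools, and p-values measure only the spread between them, which may be technical. Promoters are those of RefSeq (GRCm38.p6).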

Additional observations from a re-analysis of the deposited data

How the results depend on the processing

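The number of genes called by limma, 123, was 69 with a pseudocount of 0.1, 0 without a filter on TPM (5011 at an unadjusted p under 0.05, of 28524), 858 at an adjusted p of 0.10 and 0 to 16 with 1 pool left out, the 16 without WT pool 6 (4 higher and 12 lower, against 95 and 28). The Wnt members called, 2, became 1 with a pseudocount of 0.1, 0 without a filter and 7 at an adjusted p of 0.10, and neither call held with any pool left out. Without a filter, 21 of 46 members had an unadjusted p under 0.05, against 5011 of all 28524 genes. The other Wnt pathway genes called, 1, became 0 with a pseudocount of 0.1, without a filter or without the variance trend. An unadjusted p under 0.05 was reached in these fits by 25 of 55, 21 of 59 and 22 of 55 pathway genes. Of all genes, 4182 of 16972, 5011 of 28524 and 3897 of 16972 did so. The pathway genes called were 2 with quantile normalization or the GC content and length correction, 3 with median centring or FPKM and 7 at an adjusted p of 0.10. Of all genes, 117 of 16972 were called with quantile normalization and 102 of 16887 with the GC content and length correction. The counts were 127 of 16972 with median centring, 155 of 14934 with FPKM and 858 of 16972 at an adjusted p of 0.10. The call of *Draxin* was lost with any pool left out. The ratio of summed Wnt ligand TPM ranged from 0.586 (without Shh-/- pool 2) to 0.909 with 1 pool left out, and that of the antagonists from 1.23 to 1.38 (without WT pool 4). *Lrp6* turned to 0.0121 after the GC content and length correction, and *Notum* passed without the variance trend (adjusted p = 0.0474 by limma). Over the 22 named members tested, 290 of 304 comparisons kept direction and side of the threshold. Only *Wnt6* and *Rspo2* were past it in the main fit, so only these genes had a call to lose. They lost it in 12 comparisons, and for the other members the agreement says little about how stable a call is. Some fits in which a call was lost hold fewer pools or more genes, and others the same pools and genes as the main fit. The causes were not tested. Median centring moved the median of all genes from 0.08 to −0.05 on the log2 scale. No paired analysis was possible because the groups share no replicate number (1 and 2 against 4 and 6). With 2 pools per genotype and no counts, differences in the lowest genes were not resolved.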
